A study of Mus musculus with 9 samples.

Results

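The 41 genes described here encode enzymes and membrane proteins of the lysosome. They were chosen by gene symbol from a written list, with earlier results of these data known. All are protein-coding genes of the deposited table and make up 41 of its 56748 genes. By role they were 8 membrane proteins, 8 proteases, 10 glycosidases, 8 enzymes and cofactors of lipid breakdown, 5 sulfatases and 2 other luminal proteins. RNA-Seq libraries were made from Hepa1-6, a mouse hepatoma cell line grown in DMEM with fetal bovine serum, after 2 days with 37 µg/mL lefamulin, after 2 days with 37 µg/mL tiamulin, or as a control. Each of the 3 groups had 3 libraries. The labels describe the controls as untreated and the study's methods as vehicle-treated. Lefamulin and tiamulin are antibiotics of the pleuromutilin class, which carry different side chains on a shared tricyclic core. All libraries come from a single cell line, and no source states whether those of a group came from separate cultures, so p-values measure the spread between these libraries, which may be technical.

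The lysosome is the acidic compartment in which cells break down proteins, glycans, nucleic acids and lipids delivered by endocytosis and autophagy. Soluble hydrolases work in its lumen, and heavily glycosylated membrane proteins line it, move substrates and ions and export the products. Many lysosomal genes carry a CLEAR element in their promoter, a palindromic E-box bound by TFEB and its relatives, which couples their transcription to nutrient supply and lysosomal stress. In liver, the lysosome also releases the cholesterol of internalised lipoproteins, through acid lipase and the proteins encoded by Npc1 and Npc2.

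Promoter sequences are shown here because the E-box core CACGTG is a feature that the choice of genes did not use. RefSeq promoters (GRCm38.p6, 250 bases before to 50 bases after the annotated start) were available for 36 of the 41 genes, the missing entries being Asah1, Npc1, Galns, Ctsb and Ctsh. CACGTG, which reads the same on both strands, was present in 12 of the 36 (33.3%) and in 8.09% of all 27025 genes with a promoter. TCACGTG, on either strand, was present in 11 of the 36 (30.6%) and in 4.29% of all genes with a promoter, and TCACGTGA in 5 (13.9%) and 1.12%. The 27025 genes were not limited to genes expressed in these cells, so the base was not matched to the 41 genes. Each longer motif contains the shorter, so the counts are nested. The stretch upstream of the start that holds the motif is printed for 6 genes, with CACGTG in capitals, 5′ to 3′ on the strand of the gene.
Lamp1, chr8:13159090-13159160, plus strand: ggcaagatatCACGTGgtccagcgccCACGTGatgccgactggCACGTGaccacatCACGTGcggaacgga
Mcoln1, chr8:3500438-3500489, plus strand: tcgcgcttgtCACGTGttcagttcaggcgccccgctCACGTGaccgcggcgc
Cln3, chr7:126583342-126583395, minus strand: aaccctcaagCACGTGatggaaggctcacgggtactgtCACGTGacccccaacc
Gla, chrX:134601184-134601242, minus strand: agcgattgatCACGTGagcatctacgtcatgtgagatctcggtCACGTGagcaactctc
Naglu, chr11:101070011-101070036, plus strand: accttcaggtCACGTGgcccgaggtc
Ctsl, chr13:64370741-64370766, minus strand: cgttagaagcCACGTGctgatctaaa
Lamp1 held 4 copies, the first beginning at -61 and the last at -15 relative to the start. Ctsa, Cln3, Ctsd, Mcoln1 and Gla held 2 each, and Glb1, Naglu, Gaa, Sgsh, Ctsl and Arsa held 1. A match describes the letters in this window and does not show that a factor binds there.

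Total counts per library lay between 15568887 and 18008105, and replicate libraries varied beyond counting noise, with a chi-square statistic per degree of freedom between 3.08 and 9.03 for pairs without tiamulin 2. That library stood apart, at 22.1 against tiamulin 1 and 25.3 against tiamulin 3. Its deviation from the group mean followed the GC content of genes, with a Spearman's rho of 0.67 over 11016 genes that do not count as independent replicates. Other libraries followed GC content as well, control 1 at 0.47, control 2 at -0.47, tiamulin 1 at -0.51 and tiamulin 3 at -0.55, against values between -0.13 and 0.17 in control 3 and the lefamulin libraries. The hepatocyte markers Alb, Afp, Trf, Fgb and Hnf4a were abundant, whereas Apoa1, Ttr and Ahsg had at most 10 counts in every library. Of 10 macrophage markers, 6 had at most 10 counts in every library, and Adgre1, Tyrobp and Marco had none. The summed macrophage markers took 0.00268 to 0.00300% of counts in controls, 0.00334 to 0.00352% under lefamulin and 0.00314 to 0.00405% under tiamulin, mostly from Cd14. Of these markers Cd14 rose under each drug, by 0.36 and 0.43 on the log2 scale, and Csf1r, with 12 to 58 counts, fell under each. Other marker lists moved with the drugs too. The summed hepatocyte markers took 0.249 to 0.270% of counts in controls, 0.243 to 0.258% under lefamulin and 0.195 to 0.213% under tiamulin, and among those tested Alb fell under each drug, Hnf4a fell and Trf rose under lefamulin, Afp and Fgb fell under tiamulin, and Apoa2 and Foxa2 passed under neither drug. Fibroblast markers, mostly Dcn, which fell under each drug as Pdgfra did under lefamulin, took 0.150 to 0.159%, 0.116 to 0.121% and 0.106 to 0.115%. Endothelial markers took 0.000231 to 0.000283%, 0.000649 to 0.000728% and 0.000485 to 0.000677%, and Pecam1, with 15 to 67 counts, rose under each drug and Vwf under lefamulin. The part of these markers in the results on lysosomal genes was not tested. In bulk RNA, fewer cells of a type and less RNA per cell cannot be told apart.

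In control cells the lysosomal genes spanned a wide range of FPKM, the deposited level per gene length and library size. Ctsl, which encodes the cysteine protease cathepsin L, had 191 ± 1.87 FPKM (SD, n = 3). Psap, the precursor of the saposins that help hydrolases reach sphingolipids, had 190 ± 5.07 FPKM, a difference below the SD of the latter. Cd63, a tetraspanin of late endosomes and lysosomes, followed at 177 ± 12.3 FPKM, and Lamp1, a major glycoprotein of the lysosomal membrane, at 167 ± 1.82 FPKM. Cathepsins Z and D had 146 ± 6.85 and 144 ± 10.5 FPKM and did not differ beyond their spread. The proteases had a median level of 53.3 FPKM, the membrane proteins 18.3, the lipid enzymes 15.2, the glycosidases 14.0 and the sulfatases 5.69. Of the genes that passed the filter on low counts, the lowest were Sgsh at 3.56 FPKM and Ids at 3.12 FPKM, sulfatases of heparan and dermatan sulfate breakdown.

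**Figure D1:**
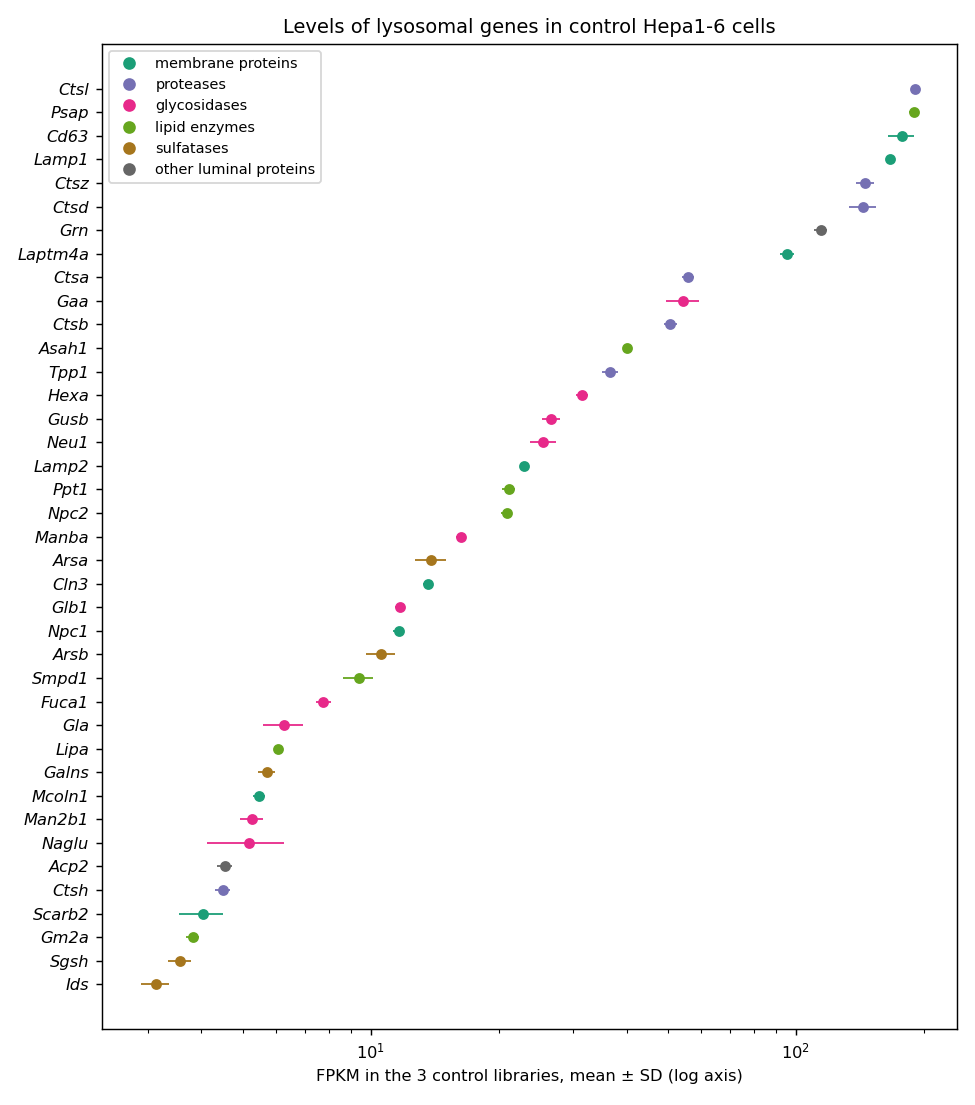
Levels of 39 lysosomal genes in control Hepa1-6 cells, in FPKM on a log axis, as the mean (points) ± SD (bars) of the 3 control libraries, coloured by role. Ctsl and Psap lie at the top and the sulfatase genes Sgsh and Ids at the bottom.

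A pair of genes were not tested. Galc, which encodes the galactosylceramidase of lysosomal lipid breakdown, had 0 counts in all 9 libraries, which allows up to 3 counts per library, or 0.193 CPM in the shallowest (counting error only). Ctsc, a dipeptidyl peptidase abundant in immune cells, had 0 to 9 counts per library. The other 39 genes passed the filter on low counts and were tested among 14510 genes. Of the 41 genes, 12 overlap another tested gene in the deposited positions (Lamp1, Npc1, Cln3, Ctsa, Ctsb, Ctsz, Glb1, Manba, Ppt1, Sgsh, Arsa and Acp2), mostly on the opposite strand. The sources used here do not say whether the counting used strand, so the values of these genes could include reads of the partner.

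Counts on the 41 genes together took 0.658 to 0.672% of all counts in the control libraries. The share was 0.763 to 0.774% in the lefamulin libraries and 0.785 to 0.813% in the tiamulin libraries, with no overlap between any of the groups. By class, the proteases went from 0.257 ± 0.0062% (SD, n = 3) in controls to 0.315 ± 0.0022% under lefamulin and 0.329 ± 0.0114% under tiamulin. Membrane proteins went from 0.177 ± 0.0053% to 0.205 ± 0.00079% and 0.196 ± 0.0116%. Lipid enzymes went from 0.0935 ± 0.0012% to 0.104 ± 0.0036% and 0.112 ± 0.0022%. The glycosidases overlapped between control and lefamulin, at 0.0747 to 0.0828% and 0.0802 to 0.0839%, and lay at 0.0833 to 0.1001% under tiamulin, where tiamulin 2 was the highest. The sulfatases overlapped the controls under each drug, at 0.0157 to 0.0167% in controls, 0.0158 to 0.0165% under lefamulin and 0.0161 to 0.0191% under tiamulin. The other luminal proteins took 0.0405 to 0.0435%, 0.0449 to 0.0465% and 0.0473 to 0.0556%, with no overlap. These sums weigh abundant genes most. Ctsl had a mean of 1245 normalized CPM (counts scaled to library size) in controls, 1571 under lefamulin and 1644 under tiamulin. All proteases together had 2579, 3132 and 3313. Cd63, with no adjusted p below 0.05 against control, had 657, 781 and 683, and all membrane proteins together 1781, 2032 and 1970. A class share therefore does not show a change in most of its genes. Overlap of such sums for other gene sets was not tested.

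**Figure D2:**
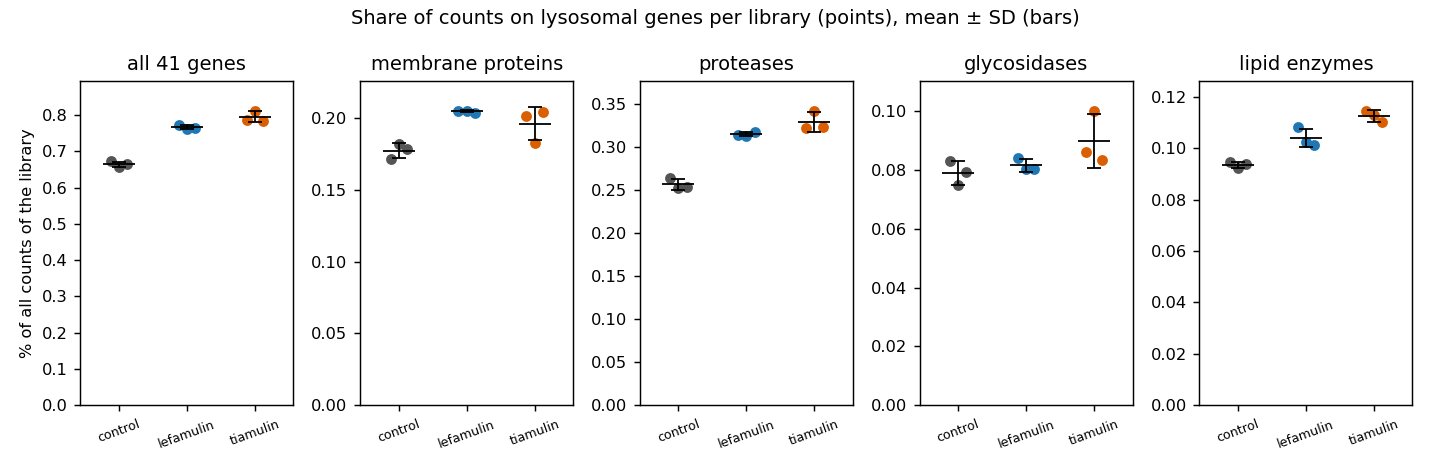
Share of all counts of a library (%) that fell on the 41 lysosomal genes and on 4 of their classes, for each control, lefamulin and tiamulin library (points) with the mean ± SD (bars). For all 41 genes the controls sit between 0.658 and 0.672%, below every treated library.

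Under lefamulin, 15 of the 39 tested genes rose and none fell at an adjusted p below 0.05 (edgeR quasi-likelihood test, Benjamini-Hochberg adjustment over all tested genes). Among all 14510 genes 7.09% rose and 6.00% fell. The median log2(fold change) of the 39 was 0.18, a fold of 1.14, and that of all tested genes -0.0018. Changes were small: none of the 39 exceeded an absolute log2(fold change) of 1 together with the adjusted p, the study's definition of a DEG, which 1.51% of all genes met. In 26 of the 39 genes all lefamulin libraries lay above all controls (18.9% of all genes). Each drug was compared with the same 3 control libraries, so the values of both comparisons are given side by side and are not independent. Scarb2, Ctsl, Gla, Hexa, Gm2a and Npc2 passed under all 19 alternative analyses. The other 9 calls were lost in 1 to 10 of them, in 10 for Ctsh, 8 for Cln3, 6 each for Mcoln1, Ctsb, Neu1 and Asah1, 4 for Ctsa, 2 for Lipa and 1 for Ctsd. Without control 3 the count of raised genes was 7, and it was 8 without control 2 or without any 1 of lefamulin 1, 2 or 3. The absence of lowered genes also depended on the analysis, since Gaa was called lowered in 5 alternatives and Manba in 3.

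Under tiamulin, 21 of the 39 genes rose and none fell, against 9.08% and 7.34% of all genes. Their median log2(fold change) was 0.25, a fold of 1.19, and that of all tested genes 0.0034. No lysosomal gene of the 39 met the DEG definition, which 1.78% of all genes did. All tiamulin libraries lay above all controls for 23 genes (17.1% of all genes). Those called under all 19 alternatives were 14 genes, Scarb2, Npc1, Ctsb, Ctsd, Ctsl, Tpp1, Gla, Glb1, Hexa, Neu1, Asah1, Gm2a, Psap and Npc2. The other 7 calls were lost in 11 alternatives for Arsa, 10 for Ctsa, 4 for Lamp1, 3 each for Lipa and Grn, 2 for Naglu and 1 for Mcoln1. Without tiamulin 2 the count was 23 and the median 0.18, and Arsa was no longer called. Manba was called lowered in the 2 alternatives that offset GC content and gene length.

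**Figure D3:**
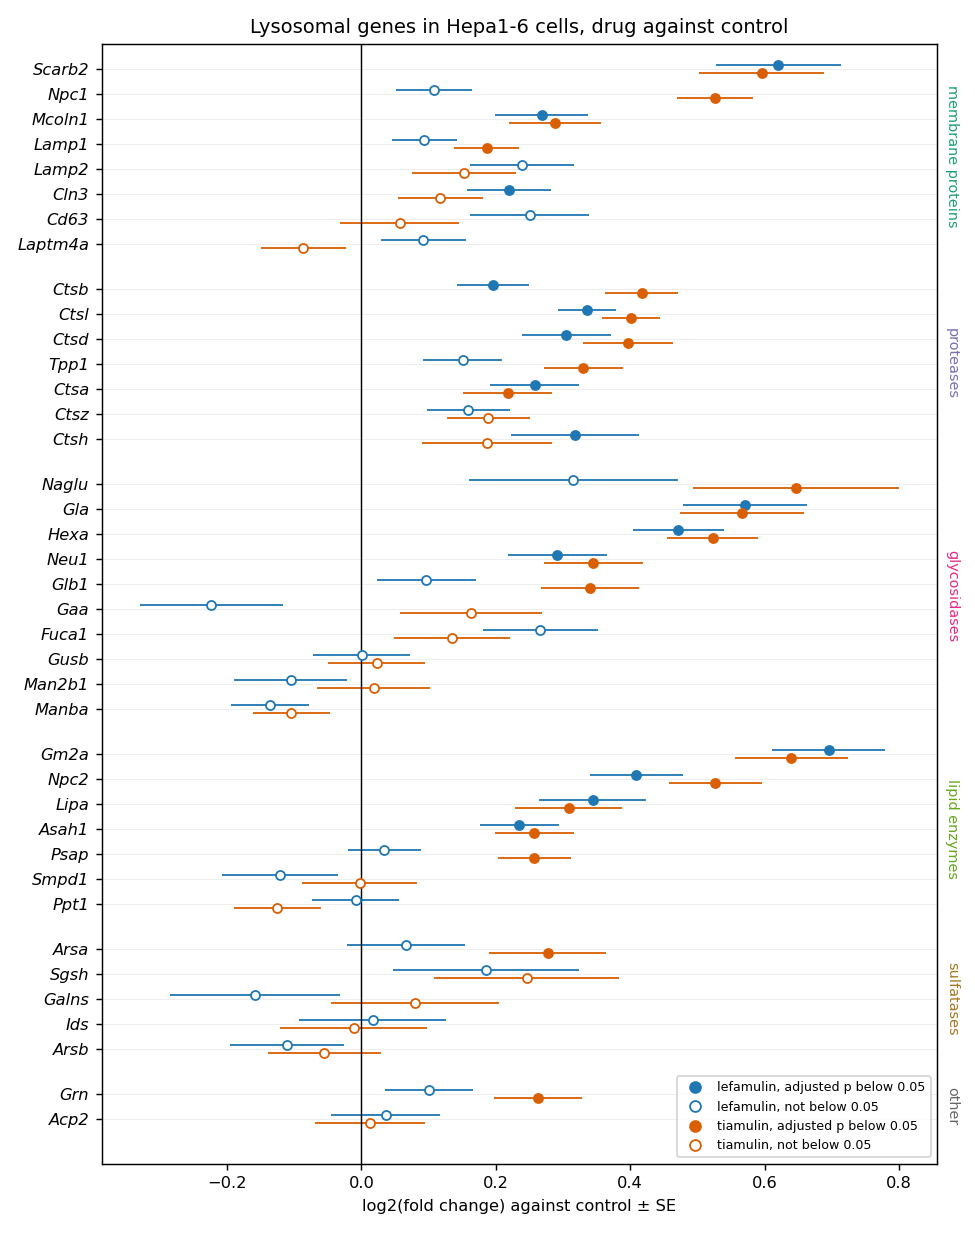
log2(fold change) against control of the 39 tested lysosomal genes, grouped by role, for lefamulin (blue) and tiamulin (orange), each with its SE as a bar. Filled points had an adjusted p below 0.05: 15 genes under lefamulin and 21 under tiamulin, all to the right of 0, with few among the sulfatases.

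Of the 8 membrane proteins, 3 rose under lefamulin and 4 under tiamulin. Scarb2 changed most under each drug (ENSMUSG00000029426, deposited at chr5:92589173-92654692 in a build that the table does not name). It encodes a glycoprotein of the lysosomal membrane that also acts in sorting to the lysosome. Scarb2 had 23.4, 28.9 and 24.0 normalized CPM (counts scaled to library size) in controls 1, 2 and 3, 36.5, 41.2 and 39.4 under lefamulin and 40.3, 37.9 and 37.0 under tiamulin. Every treated library lay above every control, and the drugs overlapped. This amounted to a log2(fold change) of 0.62 ± 0.093 under lefamulin (SE, 1.54-fold, adjusted p = 0.000533) and 0.60 ± 0.093 under tiamulin (1.51-fold, adjusted p = 0.000544). Mcoln1, the lysosomal cation channel whose promoter holds 2 E-boxes, had a smaller change. The CPM of Mcoln1 were 42.6, 39.9 and 41.9 in controls 1 to 3, 50.5, 50.1 and 49.2 in the lefamulin libraries and 49.2, 53.5 and 49.2 in the tiamulin libraries. Its controls also lay below all treated libraries. Against control the log2(fold change) of Mcoln1 was 0.27 ± 0.069 for lefamulin (SE, 1.205-fold, adjusted p = 0.0196) and 0.29 ± 0.069 for tiamulin (1.22-fold, adjusted p = 0.0105).

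Npc1, the membrane transporter that moves cholesterol out of the lysosome, was the membrane gene in which the drugs differed. In controls 1 to 3 Npc1 measured 137, 130 and 130 CPM, with lefamulin 142, 144 and 142 and with tiamulin 187, 202 and 184. The tiamulin libraries lay above all others, and the lefamulin libraries lay just above the controls. On the log2 scale the values of Npc1 were 0.11 ± 0.057 under lefamulin (SE, 1.08-fold, adjusted p = 0.242) and 0.53 ± 0.056 under tiamulin (1.44-fold, adjusted p = 2.21e-05). Rmc1 is the gene that overlaps Npc1. Cln3, whose human counterpart is mutated in juvenile Batten disease, rose under lefamulin, at 0.22 ± 0.063 on the log2 scale (SE, adjusted p = 0.0341), and not beyond the threshold under tiamulin, at 0.12 ± 0.063 on the log2 scale (SE, adjusted p = 0.234). The lefamulin call of Cln3 was lost without any 1 of the control or lefamulin libraries, with the replicate block (adjusted p = 0.0821) and without the filter on low counts, and the direct difference between the drugs was not called (adjusted p = 0.371). Lamp1, with 4 E-boxes, rose under tiamulin by 0.19 ± 0.049 on the log2 scale (SE, adjusted p = 0.0167). Lamp2, a receptor of chaperone-mediated autophagy, missed the threshold under each drug, at 0.24 ± 0.077 on the log2 scale (SE, adjusted p = 0.0569) under lefamulin and 0.15 ± 0.077 on the log2 scale (SE, adjusted p = 0.208) under tiamulin. Tiamulin 2 had 208 CPM of Lamp2, below the controls (217 to 222 CPM), while the other tiamulin libraries had 265 and 262 CPM. Without that library the tiamulin value of Lamp2 was 0.26 ± 0.043 (adjusted p = 5.68e-05). Cd63 behaved alike, with 564 CPM in tiamulin 2 and 730 and 755 CPM in the other 2, and a log2(fold change) of 0.057 with it and 0.18 without it (adjusted p = 0.00445).

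Of the 7 tested proteases, 5 rose under each drug, and all 7 had every treated library above every control under each drug. Ctsl was, with Psap, at the top of the FPKM levels in control cells (ENSMUSG00000021477, deposited at chr13:64507151-64518704). CPM of Ctsl came to 1252, 1250 and 1232 in the controls, to 1568, 1551 and 1594 with lefamulin and to 1632, 1642 and 1658 with tiamulin. Its libraries varied little within a group. Ctsl therefore had a log2(fold change) of 0.34 ± 0.043 for lefamulin (SE, 1.26-fold, adjusted p = 0.000148) and 0.40 ± 0.043 for tiamulin (1.32-fold, adjusted p = 2.32e-05). Ctsb, which encodes the cysteine protease cathepsin B, showed steps from control to lefamulin to tiamulin. Ctsb had 320, 307 and 299 CPM in controls 1, 2 and 3, 355, 347 and 358 under lefamulin and 399, 436 and 401 under tiamulin. No group overlapped another. The corresponding log2(fold change) was 0.20 ± 0.054 under lefamulin (SE, 1.15-fold, adjusted p = 0.0280) and 0.42 ± 0.054 under tiamulin (1.34-fold, adjusted p = 0.000114). Fdft1, a gene of cholesterol synthesis, is the gene that overlaps Ctsb.

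Ctsd, the main aspartic protease of the lysosome, had a wider spread. The CPM of Ctsd were 368, 320 and 332 in controls 1 to 3, 416, 426 and 418 in the lefamulin libraries and 421, 489 and 432 in the tiamulin libraries. Treated libraries lay above all controls, and tiamulin 2 was the highest. Fitted log2(fold change) values were 0.30 ± 0.067 for lefamulin (SE, 1.24-fold, adjusted p = 0.00783) and 0.40 ± 0.067 for tiamulin (1.32-fold, adjusted p = 0.000910). The lefamulin call was lost without control 3 (adjusted p = 0.0515). Ctsa encodes a carboxypeptidase that also stabilises the β-galactosidase and sialidase of the lysosome. In controls 1 to 3 Ctsa measured 274, 263 and 257 CPM, with lefamulin 305, 323 and 321 and with tiamulin 297, 342 and 284. Its controls lay below the treated libraries, by a small margin. This amounted to a log2(fold change) of 0.26 ± 0.066 under lefamulin (SE, 1.196-fold, adjusted p = 0.0197) and 0.22 ± 0.066 under tiamulin (1.16-fold, adjusted p = 0.0377). The tiamulin call of Ctsa was lost in 10 of 19 alternatives, and without tiamulin 2 its value was 0.13 ± 0.045 (adjusted p = 0.0288). Ctsh, an aminopeptidase, rose under lefamulin, at 0.32 ± 0.10 on the log2 scale (SE, adjusted p = 0.0425), and had a tiamulin value of 0.19 ± 0.10 (SE, adjusted p = 0.214). Its lefamulin call was lost in 10 of 19 alternatives, among them 7 of the 9 that leave out a library (all but those without tiamulin 1 or tiamulin 2) and the replicate block (adjusted p = 0.0912). Tpp1, a tripeptidyl peptidase, rose under tiamulin, at 0.33 ± 0.059 on the log2 scale (SE, adjusted p = 0.00147), and had a lefamulin value of 0.15 ± 0.059 (SE, adjusted p = 0.112). The direct difference between the drugs was not called for Ctsh (adjusted p = 0.457) or Tpp1 (adjusted p = 0.0947). Ctsz passed under neither drug, with an adjusted p of 0.110 under lefamulin and 0.0514 under tiamulin.

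Among the 10 glycosidases, 3 rose under lefamulin and 5 under tiamulin, and the other 5 passed under neither drug. Gla, the α-galactosidase that is deficient in Fabry disease (ENSMUSG00000031266, deposited at chrX:133488898-133501874), was the most changed under lefamulin. CPM of Gla came to 18.9, 23.0 and 19.8 in the controls, to 30.4, 28.9 and 32.4 with lefamulin and to 30.5, 31.3 and 29.5 with tiamulin. The controls varied more than the treated libraries and still lay below them. Against control the log2(fold change) of Gla was 0.57 ± 0.093 for lefamulin (SE, 1.49-fold, adjusted p = 0.000985) and 0.57 ± 0.092 for tiamulin (1.48-fold, adjusted p = 0.000748). Hexa encodes the α subunit of β-hexosaminidase, which removes a sugar from the ganglioside GM2. Hexa had 63.7, 64.5 and 60.9 CPM in controls 1, 2 and 3, 95.3, 84.5 and 82.5 under lefamulin and 92.2, 90.8 and 88.6 under tiamulin. All treated libraries were above all controls. On the log2 scale the values of Hexa were 0.47 ± 0.067 under lefamulin (SE, 1.39-fold, adjusted p = 0.000357) and 0.52 ± 0.067 under tiamulin (1.44-fold, adjusted p = 0.000114).

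Naglu, an enzyme of heparan sulfate breakdown with 1 E-box, had the widest error of the 39 genes and a tiamulin value close to that of Gm2a. The CPM of Naglu were 17.0, 11.5 and 13.1 in controls 1 to 3, 17.6, 17.2 and 16.9 in the lefamulin libraries and 18.8, 27.0 and 19.2 in the tiamulin libraries. Control 1 and the lefamulin libraries overlapped, and tiamulin 2 exceeded every other library. Naglu therefore had a log2(fold change) of 0.32 ± 0.16 for lefamulin (SE, 1.24-fold, adjusted p = 0.210) and 0.65 ± 0.15 for tiamulin (1.57-fold, adjusted p = 0.00994). Without tiamulin 2 the tiamulin value was 0.46 ± 0.13 (adjusted p = 0.00796), below those of Scarb2 (0.61), Gm2a (0.60), Npc2 (0.59), Gla (0.55) and Hexa (0.52) in the same fit. The tiamulin call was lost without control 2 or without control 3. Neu1 encodes the sialidase that works in a complex with the products of Ctsa and Glb1. In controls 1 to 3 Neu1 measured 95.1, 89.0 and 103 CPM, with lefamulin 117, 120 and 115 and with tiamulin 123, 131 and 110. Controls lay below treated libraries. The corresponding log2(fold change) was 0.29 ± 0.073 under lefamulin (SE, 1.22-fold, adjusted p = 0.0174) and 0.35 ± 0.073 under tiamulin (1.27-fold, adjusted p = 0.00495). Glb1, the β-galactosidase of that complex, rose under tiamulin, at 0.34 ± 0.073 on the log2 scale (SE, adjusted p = 0.00551), and had a lefamulin value of 0.10 ± 0.074 on the log2 scale (SE, adjusted p = 0.438).

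The remaining glycosidases passed in neither comparison with control. Gusb, the β-glucuronidase, had 116 to 127 CPM in controls, 115 to 127 CPM under lefamulin and 116 to 137 CPM under tiamulin, and the 3 groups overlapped. Gaa, the enzyme of lysosomal glycogen breakdown, had a negative value under lefamulin. CPM of Gaa came to 283, 236 and 266 in the controls, to 232, 222 and 219 with lefamulin and to 261, 358 and 260 with tiamulin. The lefamulin libraries lay below all controls, and tiamulin 2 was far above the rest. Fitted log2(fold change) values were -0.22 ± 0.11 for lefamulin (SE, 0.86-fold, adjusted p = 0.197) and 0.16 ± 0.11 for tiamulin (1.12-fold, adjusted p = 0.338). Its lefamulin value was called lowered in 5 of 19 alternatives, the range over all of them being -0.29 to -0.16. Without tiamulin 2 its tiamulin value was -0.0071. Manba, a β-mannosidase, had all treated libraries of each drug below all controls, at -0.14 ± 0.058 on the log2 scale (SE, adjusted p = 0.141) under lefamulin and -0.10 ± 0.058 on the log2 scale (SE, adjusted p = 0.249) under tiamulin. Man2b1, an α-mannosidase, and Fuca1, a fucosidase, did not pass.

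**Figure D4:**
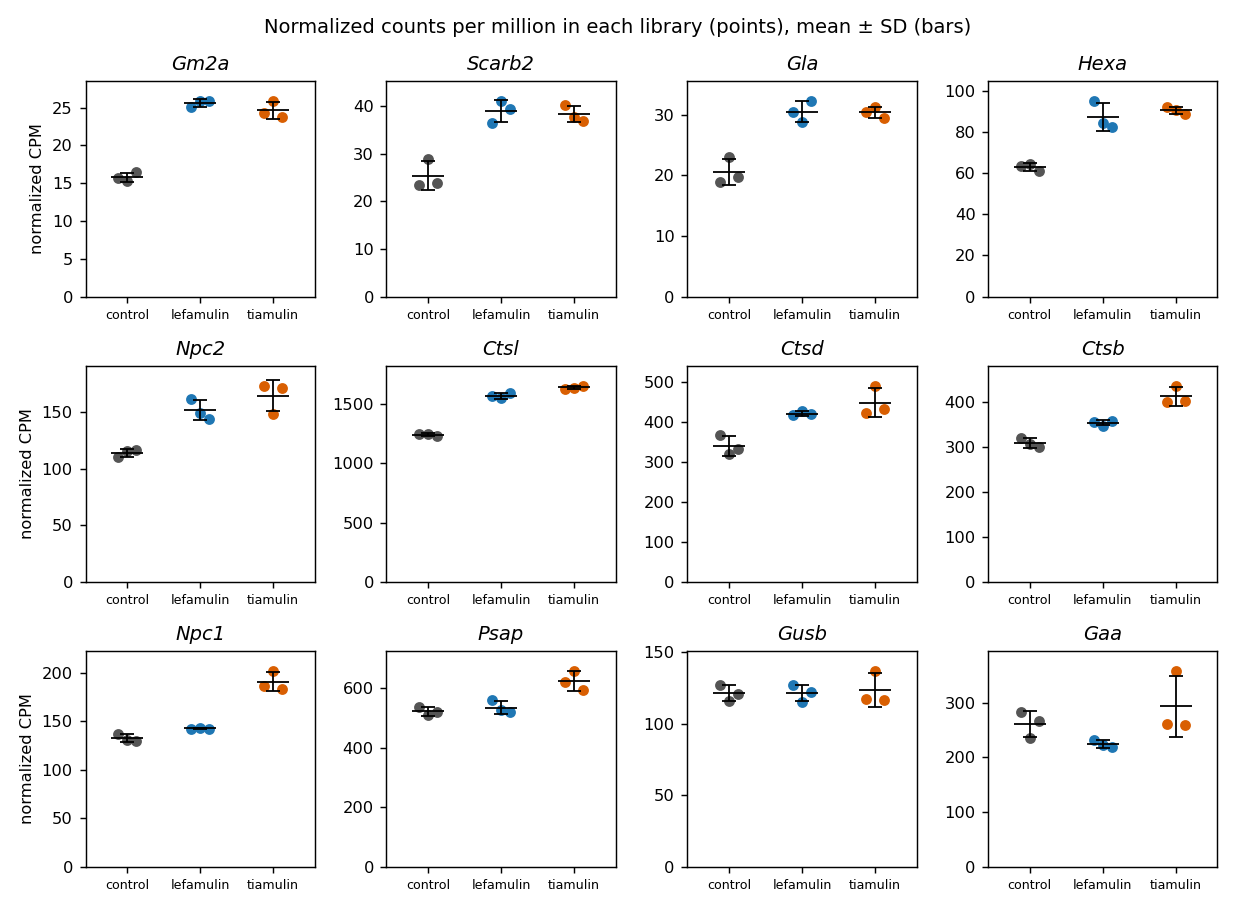
Normalized CPM (counts scaled to library size) of 12 lysosomal genes in each library (points) with the mean ± SD (bars), each panel starting at 0. Gm2a, Scarb2, Gla and Hexa sit at similar levels under both drugs and above the controls, Npc1 is higher under tiamulin than in the other groups, and Gusb overlaps between the groups.

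Genes of lipid breakdown rose in 4 of 7 tested cases under lefamulin and in 5 of 7 under tiamulin. Gm2a had the largest lefamulin value of the 39 genes (ENSMUSG00000000594, deposited at chr11:54988941-55003855). Its product lifts GM2 out of the membrane and presents it to β-hexosaminidase. Gm2a had 15.6, 15.3 and 16.5 CPM in controls 1, 2 and 3, 25.0, 25.8 and 25.9 under lefamulin and 24.3, 25.9 and 23.8 under tiamulin. Treated libraries were close to each other and all above the controls. This amounted to a log2(fold change) of 0.70 ± 0.084 under lefamulin (SE, 1.62-fold, adjusted p = 8.81e-05) and 0.64 ± 0.084 under tiamulin (1.56-fold, adjusted p = 0.000132). Npc2, the soluble lysosomal protein that hands cholesterol to the product of Npc1, rose as well. The CPM of Npc2 were 110, 116 and 117 in controls 1 to 3, 162, 150 and 144 in the lefamulin libraries and 174, 149 and 172 in the tiamulin libraries. Tiamulin 2 was the lowest of its group and still above the controls. Against control the log2(fold change) of Npc2 was 0.41 ± 0.070 for lefamulin (SE, 1.33-fold, adjusted p = 0.00140) and 0.53 ± 0.070 for tiamulin (1.44-fold, adjusted p = 0.000135).

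Lipa encodes the acid lipase that hydrolyses cholesteryl esters and triglycerides. In controls 1 to 3 Lipa measured 41.6, 41.6 and 40.4 CPM, with lefamulin 57.1, 51.4 and 48.5 and with tiamulin 52.5, 47.1 and 53.4. The controls lay close together and below all treated libraries. On the log2 scale the values of Lipa were 0.34 ± 0.080 under lefamulin (SE, 1.27-fold, adjusted p = 0.0108) and 0.31 ± 0.080 under tiamulin (1.24-fold, adjusted p = 0.0157). Asah1, the acid ceramidase, had a similar pattern. CPM of Asah1 came to 136, 134 and 139 in the controls, to 160, 161 and 161 with lefamulin and to 174, 152 and 164 with tiamulin. Its controls also lay below all treated libraries. Asah1 therefore had a log2(fold change) of 0.23 ± 0.059 for lefamulin (SE, 1.18-fold, adjusted p = 0.0171) and 0.26 ± 0.059 for tiamulin (1.195-fold, adjusted p = 0.00809). Psap passed under tiamulin and not under lefamulin. Psap had 537, 509 and 522 CPM in controls 1, 2 and 3, 559, 526 and 520 under lefamulin and 620, 659 and 595 under tiamulin. Controls and lefamulin overlapped, and the tiamulin libraries lay above both. The corresponding log2(fold change) was 0.034 ± 0.054 under lefamulin (SE, 1.02-fold, adjusted p = 0.741) and 0.26 ± 0.054 under tiamulin (1.19-fold, adjusted p = 0.00478). Smpd1, the acid sphingomyelinase, and Ppt1, a thioesterase that removes fatty acids from proteins, passed under neither drug. The 3 tiamulin libraries of Ppt1 (68.9 to 72.9 CPM) lay below its controls (74.9 to 80.7 CPM).

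None of the 5 sulfatases rose under lefamulin and 1 rose under tiamulin. That was Arsa, which removes sulfate from sulfatide, a myelin lipid. The CPM of Arsa were 55.5, 46.9 and 51.8 in controls 1 to 3, 54.2, 52.8 and 54.4 in the lefamulin libraries and 62.5, 69.1 and 55.3 in the tiamulin libraries. Control 1 (55.5 CPM) and tiamulin 3 (55.3 CPM) overlapped. Fitted log2(fold change) values were 0.066 ± 0.087 for lefamulin (SE, 1.05-fold, adjusted p = 0.678) and 0.28 ± 0.087 for tiamulin (1.21-fold, adjusted p = 0.0418). The tiamulin call was lost in 11 of 19 alternatives. Sgsh, a sulfamidase of heparan sulfate breakdown, had the largest lefamulin value of the class. In controls 1 to 3 Sgsh measured 16.2, 14.7 and 16.4 CPM, with lefamulin 19.1, 16.8 and 17.9 and with tiamulin 16.6, 23.8 and 15.8. Tiamulin 2 stood above the other 2 tiamulin libraries, which overlapped the controls. This amounted to a log2(fold change) of 0.18 ± 0.14 under lefamulin (SE, 1.14-fold, adjusted p = 0.428) and 0.25 ± 0.14 under tiamulin (1.19-fold, adjusted p = 0.256). Without tiamulin 2 the tiamulin value of Sgsh was 0.037 ± 0.11 (adjusted p = 0.853). Ids, Arsb and Galns passed under neither drug, with lefamulin values between -0.16 and 0.017.

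Of the other luminal proteins, Grn, which encodes progranulin, rose under tiamulin. CPM of Grn came to 412, 385 and 402 in the controls, to 439, 425 and 422 with lefamulin and to 450, 535 and 454 with tiamulin. All treated libraries lay above all controls, and tiamulin 2 was the highest. Against control the log2(fold change) of Grn was 0.10 ± 0.065 for lefamulin (SE, 1.07-fold, adjusted p = 0.350) and 0.26 ± 0.065 for tiamulin (adjusted p = 0.0130). Acp2, an acid phosphatase, had 22.8 to 24.7 CPM in controls, 23.5 to 25.6 CPM under lefamulin and 23.8 to 24.1 CPM under tiamulin.

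The drugs were compared directly at the same dose and time for all 39 genes, with p-values adjusted over all 14510 tested genes. Tiamulin was above lefamulin for 3 of the 39 genes and below it for none, against 2.85% and 2.05% of all genes. The median difference was 0.051 on the log2 scale. Npc1 differed most, by 0.42 ± 0.056 on the log2 scale (SE, adjusted p = 0.00104), with a 95% interval of 0.30 to 0.54. Ctsb differed by 0.22 ± 0.054 on the log2 scale (SE, adjusted p = 0.0306), with an interval of 0.11 to 0.34, and Psap by 0.22 ± 0.054 on the log2 scale (SE, adjusted p = 0.0309), with an interval of 0.11 to 0.34. Npc1 passed under all 19 alternatives, and Ctsb and Psap each under 10. Without tiamulin 2 the differences were 0.38 for Npc1, 0.18 for Ctsb and 0.18 for Psap, and 5 genes were called higher. Only Npc1 was called (a count of 1) without control 3 or without any 1 of the 3 lefamulin libraries. In the fit without the filter on low counts, Cd63 was called lower under tiamulin.

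With all 9 libraries, Npc1 and Naglu, whose tiamulin values against control were among the largest, had with Gaa the 3 largest direct differences. Only that of Npc1 was called, and Naglu lost its place without tiamulin 2. Several other strongly raised genes had direct differences whose intervals include 0 and leave room for a modest one. The difference was -0.056 for Gm2a (95% interval -0.23 to 0.12), -0.024 for Scarb2 (-0.22 to 0.17), -0.0047 for Gla (-0.20 to 0.19) and 0.051 for Hexa (-0.092 to 0.19). Ctsl had a difference of 0.066 (-0.027 to 0.16) and Ctsd of 0.092 (-0.050 to 0.23). Without tiamulin 2 these were 0.067 for Ctsl and 0.023 for Ctsd. A p above the threshold does not show that the compounds act alike. The largest difference that did not pass was that of Gaa, at 0.39 ± 0.11 on the log2 scale (SE, adjusted p = 0.0542), with an interval of 0.16 to 0.62, and it passed in 7 of 19 alternatives, among them the fit without tiamulin 2 (0.22, adjusted p = 0.0161). Naglu had the widest interval, 0.0064 to 0.66, around a difference of 0.33 (adjusted p = 0.224). Without tiamulin 2 the difference of Naglu was 0.14 ± 0.12 (SE, adjusted p = 0.544), below that of Glb1 (0.19) in the same fit.

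**Figure D5:**
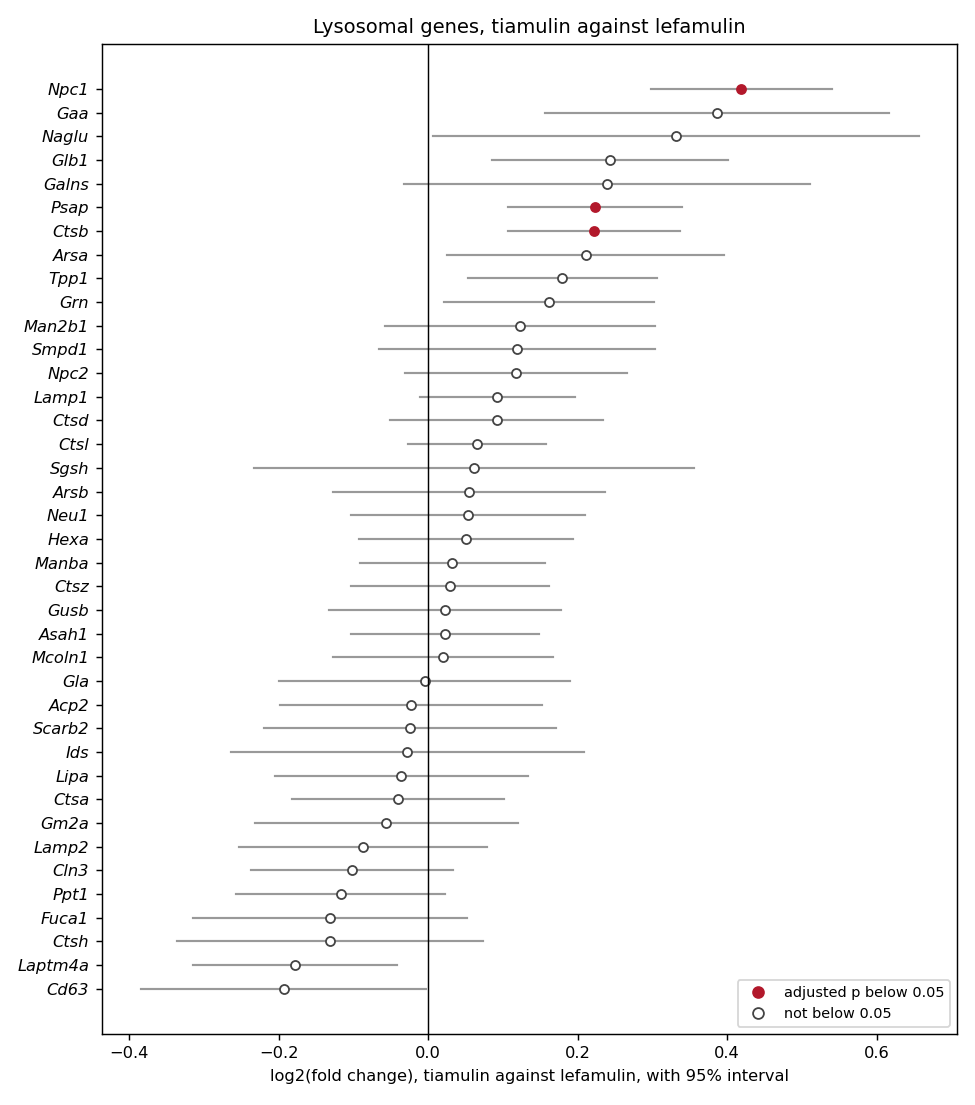
log2(fold change) of tiamulin against lefamulin for the 39 tested lysosomal genes (points), with 95% intervals (lines), ordered by size. Filled red points, Npc1, Psap and Ctsb, had an adjusted p below 0.05, and most other intervals include 0.

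Set beside the promoter motif, 6 of the 12 genes with CACGTG rose under lefamulin, with a median log2(fold change) of 0.24, and 6 of the 22 tested genes whose promoter lacked it, with a median of 0.13. Under tiamulin 9 of 12 rose with the motif, with a median of 0.28, and 9 of 22 without it, with a median of 0.14. Gm2a, Scarb2, Hexa and Npc2, among the most raised genes, had no CACGTG in the window, and Gaa and Sgsh, which had it, were not called. Of all 14510 tested genes 7.09% rose under lefamulin and 9.08% under tiamulin. The share that rose among all genes with CACGTG was not computed. The counts by motif come from a small list, with no test.

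Another 68 lysosomal genes were examined as background to the 41, namely regulators, genes of enzyme sorting and maturation, other enzymes and other membrane proteins. Of the 62 tested, 14 rose and 2 fell under lefamulin, with a median log2(fold change) of 0.14, and 16 rose and 2 fell under tiamulin, with a median of 0.15. The shares over all genes were those given above, 7.09% raised and 6.00% lowered under lefamulin and 9.08% and 7.34% under tiamulin. Between the drugs 4 were higher under tiamulin, namely Igf2r, Hgsnat, Lgmn and Scpep1, and none lower, against 2.85% and 2.05% of all genes. CACGTG was present in 13 of the 52 with a promoter (25.0%).

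No regulator rose under either drug. Tfeb, which encodes the transcription factor that drives lysosomal genes, fell under lefamulin. Tfeb had 20.3, 16.3 and 17.3 CPM in controls 1, 2 and 3, 11.4, 9.34 and 14.0 under lefamulin and 11.8, 16.9 and 10.6 under tiamulin. The controls lay above all lefamulin libraries, and tiamulin 2 overlapped control 2. On the log2 scale the values of Tfeb were -0.64 ± 0.17 under lefamulin (SE, 0.64-fold, adjusted p = 0.0268) and -0.46 ± 0.17 under tiamulin (0.73-fold, adjusted p = 0.0851). The lefamulin call was lost in 7 of 19 alternatives, and under tiamulin Tfeb was called lowered in 4 of 19. Without tiamulin 2 the tiamulin value was -0.68 ± 0.14 (adjusted p = 0.000743), and in the fit that offset gene length and GC it was -0.54 ± 0.12 (adjusted p = 0.000769). The direct difference between the drugs was not called (adjusted p = 0.606). Its relatives Tfe3 (764 to 1156 counts) and Mitf (121 to 163 counts), the repressor Zkscan3 (1024 to 1272 counts) and Flcn (845 to 1195 counts), which restrains TFEB and TFE3, passed in no comparison, and Tfec had at most 1 count in any library.

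Of 14 genes of sorting and maturation, 3 rose under each drug. Cln8, which carries enzymes from the endoplasmic reticulum to the Golgi, rose by 0.41 ± 0.087 on the log2 scale (SE, adjusted p = 0.00637) under lefamulin and 0.54 ± 0.086 on the log2 scale (SE, adjusted p = 0.000635) under tiamulin. Sort1, a sorting receptor, rose under tiamulin, at 0.37 ± 0.073 on the log2 scale (SE, adjusted p = 0.00264). Cln6, the partner of Cln8 in that transfer, fell under tiamulin, at -0.42 ± 0.11 on the log2 scale (SE, adjusted p = 0.0152). Sumf1, which activates the sulfatases, rose under lefamulin, at 0.23 ± 0.069 on the log2 scale (SE, adjusted p = 0.0398), a call lost in 8 of 19 alternatives, among them the replicate block (adjusted p = 0.0759) and 6 of the 9 that leave out a library. Cln6 lost its call in 3.

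Among 22 other enzymes tested, 6 rose and 1 fell under lefamulin, and 8 rose and 1 fell under tiamulin. Hgsnat, an acetyltransferase that acts beside Naglu in heparan sulfate breakdown, had the largest absolute log2(fold change) of the class under tiamulin. The CPM of Hgsnat were 34.2, 34.7 and 33.9 in controls 1 to 3, 46.5, 48.8 and 40.8 in the lefamulin libraries and 69.6, 73.5 and 64.6 in the tiamulin libraries. The 3 groups did not overlap. Hgsnat therefore had a log2(fold change) of 0.40 ± 0.082 for lefamulin (SE, 1.32-fold, adjusted p = 0.00478) and 1.01 ± 0.081 for tiamulin (2.02-fold, adjusted p = 1.54e-06). Scpep1, a carboxypeptidase, rose by 0.33 ± 0.049 on the log2 scale (SE, adjusted p = 0.000503) under lefamulin and 0.60 ± 0.049 on the log2 scale (SE, adjusted p = 1.89e-06) under tiamulin. Arsg, a sulfatase of heparan sulfate breakdown, fell. In controls 1 to 3 Arsg measured 17.6, 14.6 and 20.2 CPM, with lefamulin 10.2, 8.37 and 8.46 and with tiamulin 8.64, 10.5 and 7.65. All treated libraries lay below all controls. The corresponding log2(fold change) was -0.96 ± 0.15 under lefamulin (SE, 0.52-fold, adjusted p = 0.000719) and -0.97 ± 0.15 under tiamulin (0.51-fold, adjusted p = 0.000469).

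Of 21 other membrane proteins tested, 5 rose under each drug and none fell. Slc17a5, the exporter of sialic acid, rose by 0.70 ± 0.11 on the log2 scale (SE, adjusted p = 0.000772) under lefamulin and 0.78 ± 0.11 on the log2 scale (SE, adjusted p = 0.000240) under tiamulin. Cd68, a LAMP family glycoprotein also used as a macrophage marker, rose by 0.65 ± 0.16 on the log2 scale (SE, adjusted p = 0.0183) and 1.02 ± 0.16 on the log2 scale (SE, adjusted p = 0.000586) under lefamulin and tiamulin respectively. Among the macrophage markers given above Cd14 also rose under each drug, Lyz2, with 5 to 23 counts, had values of 1.13 (adjusted p = 0.133) and 0.89 (adjusted p = 0.235) on the log2 scale, Csf1r fell, and 6 of 10 had at most 10 counts in every library. Their part in the value of Cd68 was not tested. Ostm1, a subunit of the lysosomal chloride transporter, rose by 0.41 ± 0.094 on the log2 scale (SE, adjusted p = 0.0101) and 0.47 ± 0.093 on the log2 scale (SE, adjusted p = 0.00300). Ctns, the cystine exporter, rose under tiamulin, at 0.29 ± 0.082 on the log2 scale (SE, adjusted p = 0.0244). The tiamulin call of Ctns was lost in 6 of 19 alternatives, and the lefamulin calls of Cd68 and Ostm1 in 4 and 2.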

How the data were processed

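Total RNA of Hepa1-6 cells was extracted with TRIzol and sequenced in 9 libraries, which were assigned to 3 groups by the sample labels. The authors deposited unnormalized read counts for each gene and FPKM values, which followed from the deposited counts, gene lengths and library totals to within 0.1%. The submitters' processing notes list CASAVA 1.8, fastp, HISAT2 2.0.5, featureCounts 1.5.0-p3, DESeq2 1.20.0 and mm10, without roles. Only 2.76% of 52036 nuclear genes had their GRCm38 start and end, so deposited positions are given as deposited. Whether counting used strand is not given in the sources used here. Genes that overlap could share reads, and low counts carry more counting error.

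TMM normalization and testing of the counts used edgeR 4.0.16 (R 4.3.3, filterByExpr, robust quasi-likelihood fit of all 9 libraries with group as the only term), with Benjamini-Hochberg adjustment over 14510 genes. A call had an adjusted p below 0.05, and the study's further threshold, an absolute log2(fold change) above 1, was given beside it. The drugs were compared with control and with each other. The procedure was tested on simulated data. The 19 alternatives per comparison were DESeq2 size factors, DESeq2 1.42.0, 2 filters, only the 2 groups compared, limma 3.58.1 on log2(FPKM + 1) and log2(FPKM + 0.1), the replicate number as a block, offsets for GC content and gene length, both together, and leaving out each library in turn. The genes and lists were chosen with earlier results of these data known. Per class, full values were given for genes called under both drugs, called between the drugs, or with the largest absolute log2(fold change) of the class under a drug. Other genes were given by counts, ranges or single values, and of the other 68 lysosomal genes all regulators and up to 4 genes per class with the smallest adjusted p were named, except 1 that is not reported here. Same-numbered libraries did not deviate together, so the numbers were not used as pairs.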

Additional observations from a re-analysis of the deposited data

How the results depend on the processing

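Of the genes called against control, 6 of 15 under lefamulin, 14 of 21 under tiamulin and 1 of 3 between the drugs passed under every alternative, and none of those called changed sign under any. The count of genes raised under lefamulin was 7 to 22 when each library was left out in turn, being 22 without tiamulin 2, and the median log2(fold change) of all 39 tested genes 0.136 to 0.208. Genes lowered under lefamulin numbered 0 in the main analysis, 1 with no filter on low counts or with only the 2 groups compared, 2 with GC and length offsets, with or without the replicate block, and 0 to 2 when leaving out libraries. Under tiamulin the raised count was 15 to 23 when leaving out libraries, and 1 gene was lowered with the offsets, with or without the block. Between the drugs, 1 gene was raised with only the 2 groups compared, with limma on log2(FPKM + 1) and log2(FPKM + 0.1), and with the replicate block, 6 with the offsets, with or without the block, and 1 to 5 when leaving out libraries, and 1 was lowered with no filter. The replicate number as a block left 10 genes raised under lefamulin and 18 under tiamulin. Its same-numbered pairs did not deviate together (r between -0.43 and 0.042 over 11084 genes), so they share only a number. Signs changed for values that were not called. Cd63 under tiamulin was -0.00575 with block and offsets and -0.0214 (without tiamulin 3) to 0.177 when leaving out libraries, and Gaa under tiamulin -0.00705 (without tiamulin 2) to 0.243. The tiamulin to lefamulin difference of Gla was 7.6e-05 with no filter, 0.0304 with offsets, 0.0294 with block and offsets and -0.0437 to 0.0394 when leaving out libraries. That of Scarb2 was -0.0705 to 0.0170 when leaving out libraries, and that of Tfeb -0.0222 with offsets, -0.0176 with block and offsets and -0.0455 to 0.338 when leaving out libraries. Among 950 further values of 39 genes that no setting called, 67 changed sign, none beyond 0.147 on the log2 scale. The cause of these changes was not tested. The alternatives for the other lysosomal genes were added after seeing the data. With 3 libraries per group, changes smaller than the intervals given could be missed.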
